A study of Mus musculus with 18 samples.

Results

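The 7 genes described here encode Mas-related G protein-coupled receptors (Mrgpr): Mrgprd, Mrgpra3, Mrgprx1, Mrgprb5, Mrgprb4, Mrgpre and Mrgprf. They were chosen by gene name, as receptors linked to non-peptidergic and itch-sensing neurons, and are 7 of the 28684 genes counted in the series. In DRG at peak disease Mrgpra3 fell and no other member was called, with Mrgprd just outside the threshold, and neither gene returned to its no disease range at recovery. In sciatic nerve at peak Mrgprd fell to 4 counts over 3 libraries, Mrgprb5, Mrgprb4 and Mrgpra3 had none, and Mrgprf rose.

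Mrgpr genes belong to a family that expanded in rodents and is best known from small-diameter sensory neurons. Mrgprd is a receptor for beta-alanine and marks non-peptidergic nociceptors that end in the epidermis. Mrgpra3 responds to chloroquine and, with Mrgprx1, a receptor for peptides cut from proenkephalin, marks itch neurons. Mrgprb4 marks unmyelinated fibres of hairy skin that respond to stroking. Many of these receptors couple to Gq and phospholipase C beta, and in mouse the transcription factor Runx1 is required for their expression in non-peptidergic neurons. Mrgpre and Mrgprf are orphan receptors.

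The RNA came from C57BL/6 mice and was sequenced in bulk from 2 tissues, DRG L3-L5, where the somata of sensory neurons lie, and sciatic nerve, which holds axons, Schwann cells and connective tissue. Each tissue was taken in 3 stages, no disease, peak disease (PID21) and recovery (PID42), with 3 libraries in each of the 6 groups and 18 libraries in all. By its title, the series asks which kinds of sensory neuron are harmed when axons lose their interaction with glia. The sources used here give neither the way the disease was induced nor the age, sex or any engineered allele of the animals, and they do not spell out PID.

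Total counts per library ran between 13686465 and 23435562. Whether each library is its own animal is not stated, so p-values measure only the spread between libraries, which may be technical. As a check of tissue, the 18 pan-neuronal genes of the marker list summed to between 12089 and 13909.8 CPM (counts scaled to a library total of 1e6) in no disease DRG, against 188 to 610 CPM in no disease nerve. Nerve no disease replicate 1 held the 610 CPM, and the other two held 253 and 188 CPM. DRG recovery replicate 1 scored 9.70 on the first principal component, near the no disease libraries at 10.7 to 21.1, while recovery replicates 2 and 3 scored -19.6 and -16.1.

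All 7 genes lie on GRCm38 chromosome 7, in 2 places. Mrgpra3 (ENSMUSG00000078698, 47588950 to 47601372, minus strand), Mrgprx1 (ENSMUSG00000070552, 48020971 to 48027597, minus strand), Mrgprb5 (ENSMUSG00000070551, 48167983 to 48169019, minus strand) and Mrgprb4 (ENSMUSG00000070550, 48198070 to 48199288, minus strand) stand within 610339 bases. Mrgpre (ENSMUSG00000048965, 143778363 to 143784500, minus strand), Mrgprf (ENSMUSG00000031070, 145300828 to 145309557, plus strand) and Mrgprd (ENSMUSG00000051207, 145314835 to 145324086, plus strand) lie farther along, and Mrgprf ends 5277 bases before Mrgprd begins. Mrgprb4 and Mrgprb5 have a single exon each in the annotation and 84.9% identical coding sequence, the closest pair, while the other pairs ranged between 57.8% and 68.5%.

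Near-identical copies can take or lend reads, and the sources used here do not say how reads with several matches were handled. Of the 50-base words in each member's exons, 7.14% of those of Mrgpra3 also occur in another gene, most of them in Mrgpra4. The share was 5.84% for Mrgprx1, 1.45% for Mrgprb4, 1.35% for Mrgpre and 0.81% for Mrgprb5. Mrgprd and Mrgprf had no shared word. Exons of Mrgpre overlap Gm22064 on the other strand, and with the strand setting unknown reads of both cannot be told apart.

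Promoter sequence is shown for Mrgprd, the most abundant member, and for Mrgprb4 and Mrgprb5, the pair that shares sequence upstream. The windows come from RefSeq on GRCm38.p6, run 5′ to 3′ on the gene's strand and end at the base before the annotated start. The RefSeq table held 5 of the 7 members, without Mrgpra3 and Mrgprf. Capitals in the Mrgprb4 and Mrgprb5 windows mark their longest shared run.
Mrgprd, chr7:145314585-145314834, plus strand: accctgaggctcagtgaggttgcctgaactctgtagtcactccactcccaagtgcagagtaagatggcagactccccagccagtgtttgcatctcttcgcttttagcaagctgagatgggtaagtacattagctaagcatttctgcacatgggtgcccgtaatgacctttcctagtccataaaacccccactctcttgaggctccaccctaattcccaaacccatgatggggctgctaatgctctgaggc
Mrgprb4, chr7:48199289-48199428, minus strand: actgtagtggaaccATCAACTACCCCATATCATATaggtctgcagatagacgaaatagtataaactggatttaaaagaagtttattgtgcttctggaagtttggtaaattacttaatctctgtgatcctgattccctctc
Mrgprb5, chr7:48169020-48169235, minus strand: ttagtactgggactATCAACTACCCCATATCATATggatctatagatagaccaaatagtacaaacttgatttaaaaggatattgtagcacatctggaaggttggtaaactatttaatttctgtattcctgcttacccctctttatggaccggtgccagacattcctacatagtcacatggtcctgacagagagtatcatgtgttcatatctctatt

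The shared run of Mrgprb4 and Mrgprb5 is 21 bases long, and 110 of 137 aligned bases of their windows were identical (80.3%). The core motif of Runx factors, TGTGGT, was searched on both strands, with no second motif to overlap it. It was in 0 of the 5 member windows, of which 3 hold 250 bases and those of Mrgprb4 and Mrgprb5 hold 140 and 216, and in 14.2% of 27025 promoter windows of 250 bases. The absence of these letters from a window says nothing of binding by the factor.

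In DRG the members covered a wide range of levels. To compare genes, CPM was divided by the exon length in kilobases. With no disease Mrgprd stood at 57.9 ± 3.24 CPM per kb, Mrgprb5 at 28.8 ± 6.19 and Mrgprb4 at 16.8 ± 2.27 CPM per kb (SD, n = 3). Mrgprx1 followed at 11.3 ± 1.13, Mrgpra3 at 7.55 ± 0.62, Mrgpre at 4.09 ± 0.07 and Mrgprf at 1.37 ± 0.33 CPM per kb. Ranges of neighbours in that order did not overlap with no disease. The order was the same at peak and at recovery, and the only neighbours whose ranges overlapped were Mrgpra3 and Mrgpre at peak, at 4.52 ± 0.52 and 4.09 ± 0.89 CPM per kb.

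Within the 9 DRG libraries the members did not move as a block. Mrgprd, Mrgpra3 and Mrgprx1 had pairwise Pearson r of 0.72 (Mrgprd and Mrgpra3), 0.62 (Mrgprd and Mrgprx1) and 0.65 (Mrgpra3 and Mrgprx1) on log2 CPM, whereas Mrgprb4 and Mrgprb5, close in sequence and position, had r of 0.10. These describe 9 libraries that share 3 stages and a common scaling.

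**Figure D1:**
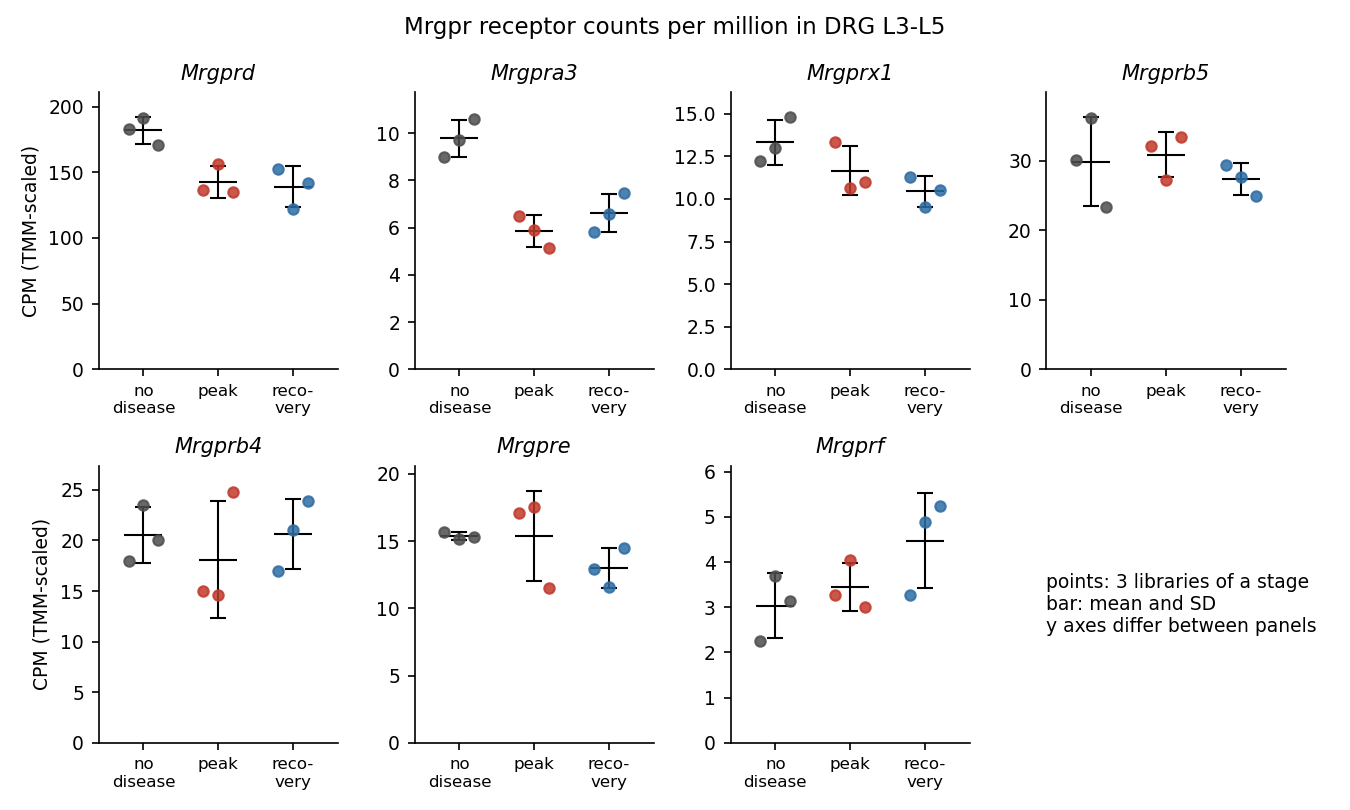
TMM-scaled CPM of each receptor in DRG with no disease, at peak and at recovery; points are the 3 libraries of a stage, bars the mean and SD, and y axes start at 0 and differ between panels. All 3 peak and all 3 recovery libraries lie below the no disease libraries for Mrgprd and Mrgpra3, whereas the stages of Mrgprb4 and Mrgprb5 overlap.

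The first comparison asked which receptors changed in the ganglia at peak disease. Mrgpra3, the chloroquine receptor of itch neurons, had 167, 174 and 189 counts (9.0, 9.73 and 10.6 CPM) in the no disease libraries, 97, 95 and 70 counts (6.50, 5.92 and 5.14 CPM) at peak, and 114, 160 and 176 counts (5.84, 6.57 and 7.45 CPM) at recovery. All peak and recovery libraries were below all no disease libraries, and peak and recovery overlapped. Mrgpra3 averaged 5.85 ± 0.68 CPM at peak and 9.78 ± 0.80 CPM with no disease (SD, n = 3 each), a log2 fold change of -0.74 ± 0.15 (SE) with an adjusted p of 0.0168 by edgeR's quasi-likelihood test. In bulk RNA, fewer cells of a type and less RNA per cell cannot be told apart.

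Mrgpra3 was 1 of the 7 members called lower at peak in DRG, and no member was called higher. Over all 16482 genes tested, 3.21% were called lower and 4.42% higher. Peak and no disease libraries did not overlap for 2 of 7 members, both lower (Mrgpra3 and Mrgprd), and for 16.9% of all genes in that direction. The call of Mrgpra3 did not hold without DRG no disease replicate 3 (adjusted p = 0.0769) or without DRG peak replicate 3 (adjusted p = 0.0588), nor in a fit of all 18 libraries (adjusted p = 0.166), within a range of 0.00116 to 0.166 over the alternatives.

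Mrgprd, the beta-alanine receptor, had 183, 191 and 171 CPM in the no disease libraries, 136, 157 and 135 CPM at peak, and 153, 122 and 142 CPM at recovery, from 1842 to 3421 counts per library. Here too the no disease libraries lay above all others, and peak and recovery overlapped. The mean was 143 ± 12.0 CPM at peak and 182 ± 10.2 CPM with no disease. The log2 fold change was -0.35 ± 0.10 (SE) with an adjusted p of 0.0545 by edgeR, which did not pass 0.05. Its adjusted p ranged between 0.0159 and 0.687 over the settings tried, and DESeq2 called it (0.0194), as did fits without DRG recovery replicate 1 (0.0159) or replicate 2 (0.038).

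Of the other 5 members none was called in DRG at peak, and in each the peak and no disease libraries overlapped. Mrgprx1, a receptor for proenkephalin peptides, averaged 11.7 ± 1.45 CPM at peak and 13.3 ± 1.33 CPM with no disease (log2 fold change -0.19 ± 0.13, adjusted p = 0.377). Mrgprb4, the receptor of stroking-responsive fibres, averaged 18.1 ± 5.76 and 20.5 ± 2.77 CPM at those stages (-0.18 ± 0.21, adjusted p = 0.626). For Mrgprb4 the peak libraries were spread, with replicate 3 at 24.8 CPM and replicates 1 and 2 at 15 and 14.6 CPM. Mrgprb5, its close relative, averaged 30.9 ± 3.26 CPM at peak and 29.9 ± 6.42 CPM with no disease (0.05 ± 0.15, adjusted p = 0.875). The orphan receptor Mrgpre averaged 15.4 CPM at both stages, with an SD of 3.35 at peak and 0.27 with no disease (0.00 ± 0.15, adjusted p = 0.991), and Mrgprf averaged 3.45 ± 0.54 and 3.03 ± 0.72 CPM (0.19 ± 0.25, adjusted p = 0.685). The median log2 fold change of the 7 members was -0.18, beside 0.01 over all genes tested.

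General neuronal transcripts moved at the same stage, and their part in the change of the receptors was not tested beyond a change of scaling. The summed pan-neuronal list stood between 12089 and 13909.8 CPM with no disease, between 9936 and 11639 CPM at peak and between 9820.1 and 12552 CPM at recovery, with none of its 18 genes at 0. At peak 4 of the 18 fell (Nefl, Snap25, Isl1 and Stmn3) and none rose. When libraries were scaled to the sum of this list in place of all genes, the median of all genes moved to 0.30, the log2 fold change of Mrgpra3 was -0.45 (adjusted p = 0.152) and that of Mrgprd was -0.07 (adjusted p = 0.687). Relative to the sum of these neuronal genes no member was called lower at peak. That sum weighs abundant genes most, and Nefl and Tubb3 were the most abundant of the list in DRG. Nefl itself fell at peak (-0.64 ± 0.13, adjusted p = 0.0167 by edgeR), so the scaled values depend on such genes. Mrgprb4 and Mrgprx1 changed sign under that scaling, to 0.10 and 0.11.

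Markers of some other cells rose in DRG at the stages where Mrgpra3 and Mrgprd were low. At peak 4 of 8 Schwann cell genes rose, with sums of 5698 to 6231 CPM at peak and 3004 to 4229 CPM with no disease. Of 8 macrophage genes 5 rose (176 to 255 CPM at peak, 123 to 138 CPM with no disease), and of 11 fibroblast genes 4 rose (1996 to 4244 CPM at peak, 1881 to 2166 CPM with no disease). None of these lists had a gene that fell or a gene at 0 in a whole group. At recovery 4 of 8 Schwann cell genes (5392 to 6842 CPM) and 4 of 8 macrophage genes (134 to 248 CPM) were higher than with no disease. Other lists moved less at peak. None of 6 endothelial genes and none of 9 mast cell genes tested was called. Of 11 smooth muscle and pericyte genes 1 rose, and of 6 satellite glia genes 1 rose and 1 fell. At recovery 2 endothelial and 2 smooth muscle and pericyte genes were higher, and no fibroblast, satellite glia or mast cell gene was called. The part of all these cells in the receptor values was not tested.

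**Figure D2:**
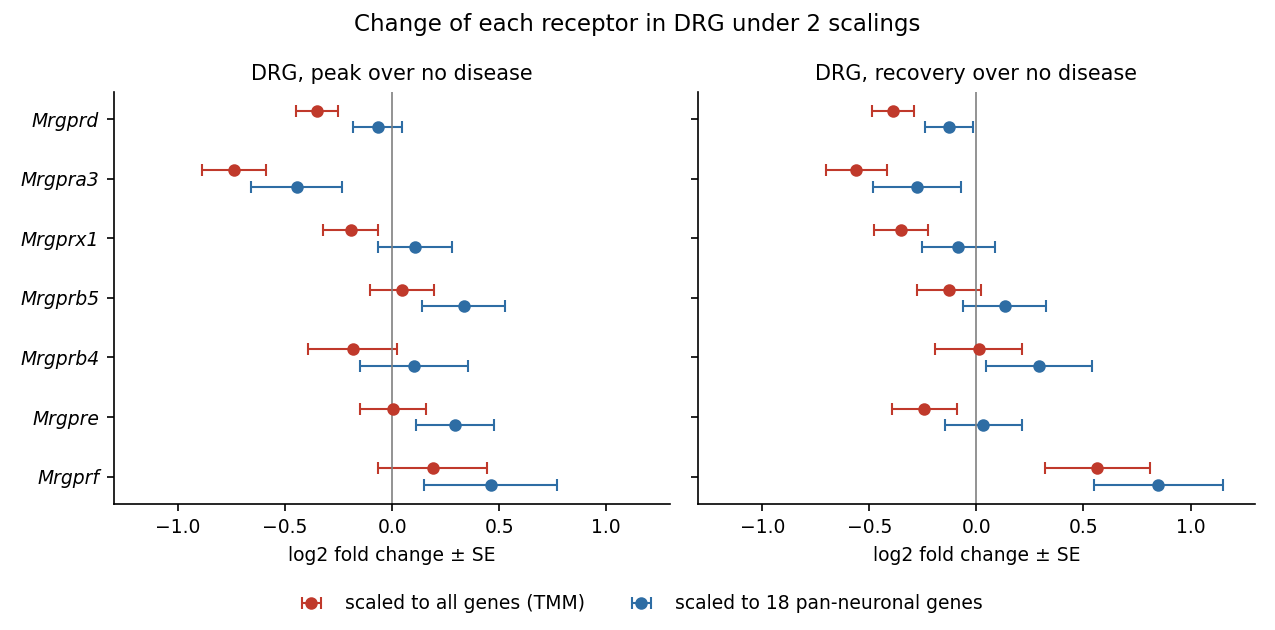
Log2 fold change with its SE for each receptor in DRG, peak over no disease on the left and recovery over no disease on the right, scaled to all genes (red) or to the 18 pan-neuronal genes (blue). At peak Mrgpra3 lies at -0.74 under the first scaling and -0.45 under the second, and Mrgprd at -0.35 and -0.07.

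At recovery the ganglia were set against no disease and against peak. None of the 7 members passed edgeR's test against no disease, with 2 called lower by DESeq2 and 0 by limma-voom. Over all genes tested, 0.734% were called lower and 2.44% higher. Recovery and no disease libraries did not overlap for 4 members, each lower at recovery, and 12.8% of all genes tested were lower without overlap. DESeq2 called 3.42% of all genes lower.

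Mrgpra3 averaged 6.62 ± 0.81 CPM at recovery, against the 9.78 CPM of no disease (log2 fold change -0.56 ± 0.14, adjusted p = 0.0591). Mrgprd averaged 139 ± 15.6 CPM, against 182 CPM (-0.39 ± 0.10, adjusted p = 0.0564). Mrgprx1 had 11.3, 9.52 and 10.5 CPM at recovery, all below the 12.2, 13.0 and 14.8 CPM of no disease (-0.35 ± 0.13, adjusted p = 0.134). Mrgpre was the fourth gene without overlap, at 13.0, 11.6 and 14.5 CPM at recovery and 15.7, 15.2 and 15.3 CPM with no disease (-0.24 ± 0.15, adjusted p = 0.379).

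The remaining members overlapped between the stages. Mrgprf averaged 4.47 ± 1.05 CPM at recovery and 3.03 ± 0.72 CPM with no disease (0.56 ± 0.24, adjusted p = 0.205). Mrgprb4 averaged 20.6 ± 3.47 CPM at recovery and 20.5 ± 2.77 CPM with no disease, and Mrgprb5 27.3 ± 2.28 and 29.9 ± 6.42 CPM. Without DRG recovery replicate 1, the library near the no disease ones, Mrgpra3 (adjusted p = 0.0382), Mrgprd (0.00581) and Mrgprx1 (0.046) were called lower and Mrgprf higher (0.0474). All-gene calls without it were 11.2% lower and 10.5% higher, so the members' count stood beside a larger background.

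Between recovery and peak in DRG edgeR called 0 of 7 members, with 0 at unadjusted p under 0.05 and 0 by DESeq2 or limma-voom. That comparison called few genes of any kind, 0.109% lower and 0.0303% higher. The log2 fold change, recovery over peak, was 0.18 ± 0.15 for Mrgpra3 and -0.04 ± 0.10 for Mrgprd.

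In sciatic nerve the members fell into 2 kinds. Mrgprf and Mrgpre had steady counts in all 9 libraries, of 185 to 589 and 64 to 161. Mrgprd, Mrgpra3, Mrgprx1, Mrgprb5 and Mrgprb4 had low counts that differed several fold between libraries of 1 stage. Only Mrgprd of these 5 passed the filter on low counts, so that 3 of the 7 members were tested, and the other 4 are given as counts.

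Mrgprd had 123, 19 and 8 counts in no disease nerve (7.01, 1.74 and 0.52 CPM), 4, 0 and 0 counts at peak (0.19, 0 and 0 CPM), and 66, 15 and 8 counts at recovery (3.60, 0.82 and 0.36 CPM). No disease and peak did not overlap, and no disease and recovery did. Its log2 fold change at peak was -5.48 ± 1.43 (adjusted p = 0.0193), a size that rests on 4 counts over 3 peak libraries. The call did not hold without nerve no disease replicate 1 (-3.94, adjusted p = 0.074) or without peak replicate 2 (adjusted p = 0.0567), within a range of 3.74e-06 to 0.074 over the alternatives.

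Mrgprb5, Mrgprb4 and Mrgpra3 had no count in any peak nerve library, where a floor of 3 counts over the group is 0.0479 CPM. Mrgprb5 had 27, 2 and 5 counts with no disease and 13, 4 and 2 at recovery. Its no disease mean was 14.2 times that floor, and 5.28 times without no disease replicate 1, with single no disease libraries at 0.183 to 1.54 CPM. These ratios leave out the spread between no disease libraries. Mrgprb4 had 13, 6 and 1 counts with no disease and 8, 2 and 3 at recovery. Its no disease mean was 9.43 times the floor, or 6.41 times without no disease replicate 1, with single no disease libraries at 0.0645 to 0.741 CPM.

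Mrgpra3 had 7, 1 and 0 counts with no disease and 5, 1 and 1 at recovery. Its no disease mean was 3.41 times the floor of the peak libraries. Without replicate 1 the no disease level fell under the floor, so that no fold can be given. Mrgprx1 kept counts at peak, with 12, 3 and 4 counts with no disease, 0, 5 and 2 at peak and 14, 3 and 1 at recovery. In a fit with no low-count filter, edgeR's adjusted p at peak was 0.00591 for Mrgprb5, 0.00963 for Mrgprb4, 0.0932 for Mrgpra3 and 0.277 for Mrgprx1.

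Mrgprf, the orphan receptor next to Mrgprd on the chromosome, rose in nerve at peak. It had 13.5, 17.0 and 14.3 CPM in the no disease libraries, 20.2, 21.3 and 24.5 CPM at peak, and 15.3, 14.8 and 16.9 CPM at recovery. All 3 peak libraries were above the other 6, and no disease and recovery overlapped. The log2 fold change at peak was 0.57 ± 0.12 (adjusted p = 0.0085). The call held without each library in turn. Mrgpre averaged 6.17 ± 0.71 CPM at peak and 5.85 ± 0.60 CPM with no disease (0.08 ± 0.16, adjusted p = 0.757).

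Thus 1 of the 3 members tested was called lower in peak nerve and 1 higher. The background was high, with 12.1% of 16049 genes called lower and 15.0% higher. Scaled to the pan-neuronal genes, which moved the all-gene median to 0.38, the log2 fold change of Mrgprf was 0.92 but its adjusted p was 0.559.

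Marker lists of other nerve cells moved at the same stage as Mrgprf. In peak nerve 4 of 11 smooth muscle and pericyte genes fell and none rose, with sums of 552 to 933 CPM at peak and 882 to 1317 CPM with no disease. Of 11 fibroblast genes 4 rose, among them Col1a1, and 5 fell, with sums of 27058 to 31004 CPM at peak and 20613 to 25190.3 CPM with no disease. Of 8 macrophage genes 5 rose and 1 fell (1097 to 1635 CPM at peak, 819.9 to 1240.2 CPM with no disease), and of 6 endothelial genes 4 fell (123 to 314 CPM at peak, 401 to 422 CPM with no disease). None of these markers was at 0 in a whole group, and their part in the change of Mrgprf was not tested.

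At recovery in nerve, edgeR called 0 of the 3 members tested against no disease, with 0 at unadjusted p under 0.05 and 0 by DESeq2 or limma-voom, beside 0.393% of all genes lower and 0.629% higher. Against peak, Mrgprf fell (-0.49 ± 0.12, adjusted p = 0.0221), and no member was called higher, beside 11.1% of all genes lower and 7.36% higher. Mrgprd was higher at recovery than at peak in every library, with a log2 fold change of 4.48 ± 1.49 that did not pass (adjusted p = 0.0622, within 0.000215 to 0.23 across the settings tried). The call of Mrgprf at recovery over peak did not hold without recovery replicate 1 (0.0815) or replicate 2 (0.0868).

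**Figure D3:**
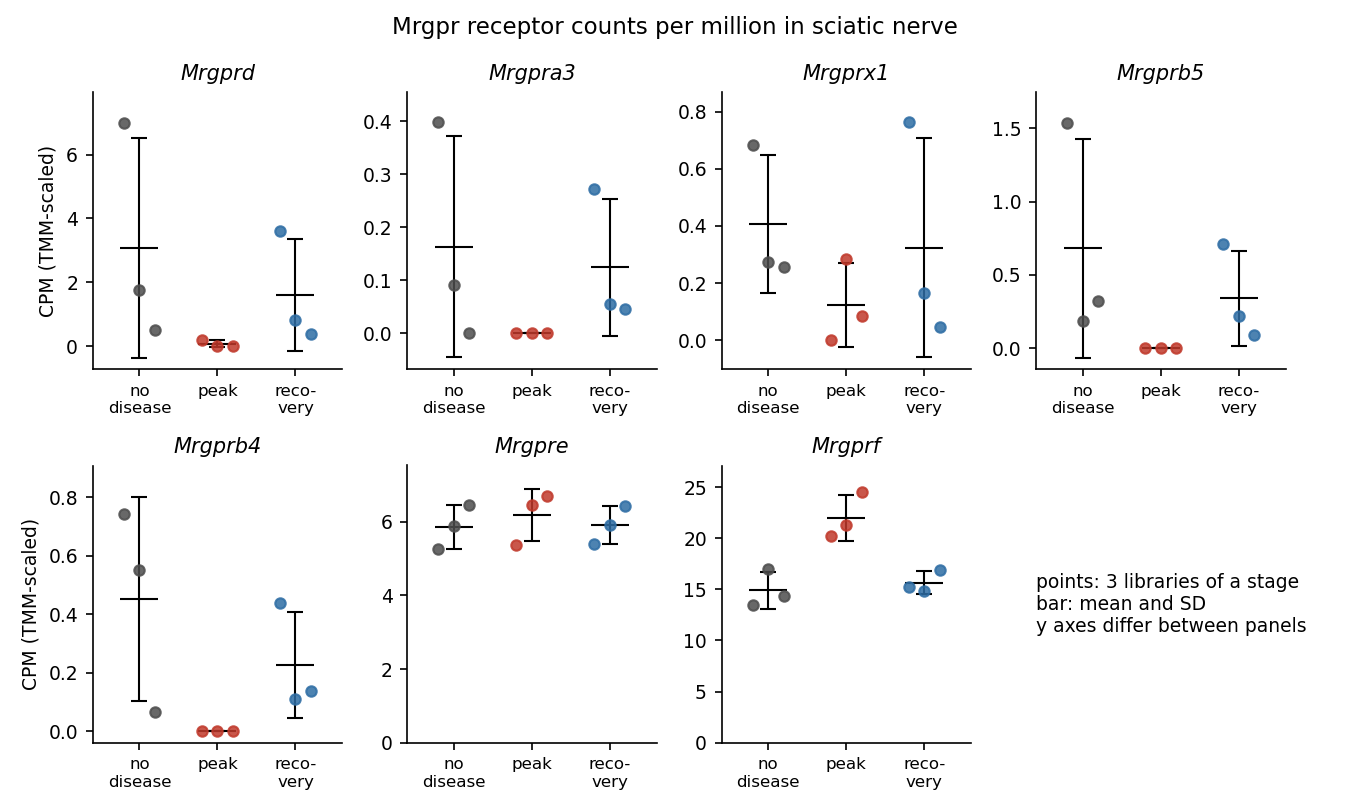
TMM-scaled CPM of each receptor in sciatic nerve by stage; points are the 3 libraries, bars the mean and SD, and y axes differ between panels. Mrgprf lies at 20.2 to 24.5 CPM at peak, above the other stages, and Mrgpra3, Mrgprb5 and Mrgprb4 lie at 0 in all 3 peak libraries.

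In nerve the sum of the pan-neuronal list was 183 to 233 CPM at peak and 188 to 610 CPM with no disease. Mrgprd had 4 and 0 counts in peak replicates 1 and 2, where that sum was 233 CPM. It had 8 counts in no disease replicate 3, where the sum was 188 CPM, so list and members did not run together across stages. Within no disease and within recovery, the library with the highest sum (610 and 345 CPM) was also the highest for each of the 5 neuronal members. Set as a percent of their no disease DRG mean, the highest no disease nerve library was replicate 1 for all 5, at 3.70% for Mrgprd, 3.92% for Mrgpra3, 4.92% for Mrgprx1, 4.94% for Mrgprb5 and 3.47% for Mrgprb4. The median of the pan-neuronal list was 5.02% in that library and 2.08% and 1.38% in the other two. Replicate 1 was also the highest of the recovery libraries for all 5, with 1.84% for Mrgprd and 5.31% for Mrgprx1 beside 2.50% for the pan-neuronal median.

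At peak the pan-neuronal median was 0.847% to 1.71% of its DRG level in nerve. Mrgprd was at 0 to 0.0942%, Mrgpra3, Mrgprb5 and Mrgprb4 were at 0, and Mrgprx1 was at 0 to 1.94%. Genes within the pan-neuronal list differed, with 9 of 18 called lower in peak nerve and 1 higher (Thy1). Among its called genes of at least 1 CPM the largest falls were Isl1 (log2 fold change -4.53), Pou4f1 (-4.43) and Nefl (-3.38). Lists of other sensory neurons differed, beside 12.1% of all genes called lower and 15.0% higher. Of 7 C-low-threshold mechanoreceptor genes tested, 4 were called lower and 1 higher in peak nerve (median -0.67). Of 11 A-fibre neuron genes, 2 were called lower and 1 higher (median 0.19). The list of peptidergic neuron genes fell most. All 8 tested were called lower in peak nerve with a median of -4.54 (5 of 8 and -3.48 without nerve no disease replicate 1), and their sum was 3.76 to 5.37 CPM at peak and 22.9 to 140.4 CPM with no disease. The difference between the receptors and the pan-neuronal median was not tested, and single genes with low counts scatter more than a median of 18 genes.

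**Figure D4:**
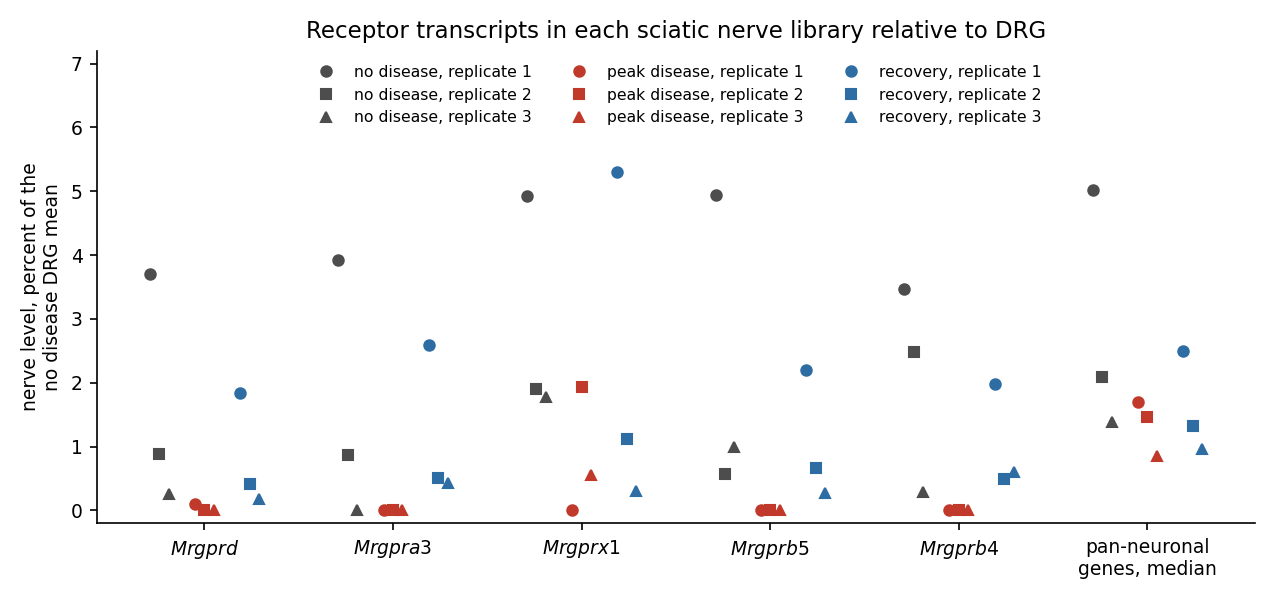
Level in each sciatic nerve library as a percent of the no disease DRG mean (CPM scaled over all 18 libraries), for the 5 neuronal receptors and the median of the 18 pan-neuronal genes; colour gives the stage and shape the replicate. Replicate 1 is the highest library of no disease and of recovery for each receptor, and at peak 3 receptors lie at 0 while the pan-neuronal median lies at 0.847% to 1.71%.

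The tissues were then compared in 1 fit of all 18 libraries. With no disease 6 members were higher in DRG than in nerve and Mrgprf was lower, beside 37.0% of 17289 genes higher and 37.4% lower. Of the 6, Mrgpra3, Mrgprx1, Mrgprb5 and Mrgprb4 passed the filter only through DRG, where they are high, so the count of 6 is a description. Mrgprd averaged 191 ± 10.2 CPM in DRG and 3.08 ± 3.49 CPM in nerve on this common scale, a log2 difference of 5.88 ± 0.58 (adjusted p = 1.35e-07). Mrgpra3 (5.80), Mrgprb4 (5.57), Mrgprb5 (5.38) and Mrgprx1 (5.03) were of like size. Mrgpre was closer between the tissues, at 16.1 ± 0.32 CPM in DRG and 5.73 ± 0.48 CPM in nerve (1.49 ± 0.16, adjusted p = 2.56e-07).

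Mrgprf went against its grouping with receptors of sensory neurons. It averaged 3.18 ± 0.75 CPM in DRG and 14.6 ± 1.58 CPM in nerve (-2.20 ± 0.19, adjusted p = 2.29e-08), and per kilobase it was the highest member in nerve at every stage, at 6.74 ± 0.82 CPM per kb with no disease. Mrgpre came next there at 1.56 ± 0.16 CPM per kb, and from Mrgpre down the ranges of neighbours overlapped with no disease. At peak and at recovery Mrgpre was also separate from the members below it. All 18 pan-neuronal genes were higher in DRG than in nerve. Scaled to those genes, under which the all-gene median stood at -5.68, only Mrgprd of the members was called higher in DRG (0.91), and Mrgprf (-7.86) and Mrgpre (-4.20) were called lower.

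The peak response, peak over no disease, was then compared between the tissues. The response of DRG minus that of nerve was 5.23 ± 1.39 for Mrgprd (adjusted p = 0.0191), the only neuronal member that passed the low-count filter in both tissues. Its call was lost without nerve no disease replicate 1 (3.55, adjusted p = 0.0948) and without nerve peak replicate 2 (adjusted p = 0.0503), within a range of 1.6e-05 to 0.0948 over the alternatives. Over all genes 9.47% were called higher and 6.63% lower. Mrgprb5, Mrgprb4, Mrgpra3 and Mrgprx1 entered this fit only through their DRG counts, so no count of calls is read from them, and Mrgpre and Mrgprf were not called. For the recovery response edgeR called 0 of 7, with 0 at unadjusted p under 0.05 and 0 by DESeq2 or limma-voom, beside 0.324% of all genes higher and 0.133% lower. That count includes the members that entered through DRG, so it is a description.

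Lists of non-peptidergic and itch neuron genes, and of receptor signalling genes, give the setting. Bulk RNA does not show whether the cells that express these genes are those that express the members. Of 15 non-peptidergic genes 2 fell in DRG at peak and none rose. These were Gna14, a G protein alpha subunit of the Gq class (82.9 ± 5.07 CPM at peak and 103 ± 4.78 CPM with no disease, -0.32 ± 0.08, adjusted p = 0.0326), and Prkcq, a protein kinase C (-0.33 ± 0.08, adjusted p = 0.0331). The list median was -0.24, beside 0.01 over all genes. Scaled to the pan-neuronal genes its median was 0.04, with 2 genes called higher and 0 lower. Without DRG peak replicate 2, whose fibroblast marker sum was the lowest of the peak libraries (1996 CPM, against 3207 and 4244 CPM), 1 non-peptidergic gene, 0 itch genes and 0 signalling genes were called lower. All-gene calls fell too, to 1.83% lower and 2.56% higher, beside 3.21% and 4.42% in the main fit. The non-peptidergic median was -0.30 in that fit. The part of fibroblast content was not tested.

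Of 13 itch neuron genes 2 rose and 1 fell in DRG at peak, with a list median of -0.24. The neuropeptide gene Nts rose most, at 77.4 ± 14.8 CPM at peak and 10.5 ± 1.40 CPM with no disease (2.88 ± 0.15, adjusted p = 3.1e-05), and it also stands in the list of neuronal injury genes, of which 13 of 16 rose. Gfra1, a co-receptor for GDNF, rose (0.74 ± 0.13, adjusted p = 0.0113). Trpa1, the irritant channel through which Mrgpra3 drives itch in mouse, fell (85.7 ± 2.75 CPM at peak and 101 ± 2.01 CPM with no disease, -0.24 ± 0.06, adjusted p = 0.0423).

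At recovery 5 of the 13 itch genes were lower than with no disease and Nts was higher (1.90 ± 0.15, adjusted p = 0.00161). The leukotriene receptor Cysltr2 (-0.63 ± 0.12, adjusted p = 0.03), the serotonin receptor Htr1f (-0.49 ± 0.11, adjusted p = 0.044), Trpa1 (-0.45 ± 0.06, adjusted p = 0.0139) and the cytokine receptor subunits Il31ra (-0.44 ± 0.10, adjusted p = 0.0383) and Osmr (-0.30 ± 0.07, adjusted p = 0.0494) fell. Their list median was -0.41, and -0.13 when scaled to the pan-neuronal genes. Without DRG recovery replicate 1, 8 itch genes, 10 of 15 non-peptidergic and 13 of 18 pan-neuronal genes were called lower. That library was left out because it lay near the no disease ones. All-gene calls without it were 11.2% lower and 10.5% higher, beside 0.734% and 2.44% in the main fit.

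Of 22 genes of receptor signalling 2 rose and 3 fell in DRG at peak, with a median of -0.01. Scaled to the pan-neuronal genes, 5 were called higher and 0 lower, with a median of 0.27. The inositol trisphosphate receptors Itpr3 (0.54 ± 0.10, adjusted p = 0.0141) and Itpr1 (0.52 ± 0.10, adjusted p = 0.0122) rose. Rgs4, which shortens G protein signals, fell (-0.41 ± 0.10, adjusted p = 0.0311), as did Gna14 and Trpa1. Gnaq, which encodes the Gq subunit, averaged 288 ± 28.4 CPM at peak and 265 ± 16.0 CPM with no disease and was not called.

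In nerve at peak 5 of 15 non-peptidergic genes fell and none rose, with a list median of -0.74 beside 0.00 over all genes. Without nerve no disease replicate 1 the median was -0.33, with 5 called lower and 1 higher, and scaled to the pan-neuronal genes it was -0.15. The sodium channel Scn10a averaged 0.12 ± 0.14 CPM at peak and 12.9 ± 12.9 CPM with no disease (-6.76 ± 1.20, adjusted p = 0.00311), Scn11a 0.14 ± 0.15 and 10.7 ± 9.92 CPM (-6.18 ± 1.06, adjusted p = 0.00271), and the kainate receptor Grik1 fell by 3.44 on the log2 scale (SE 0.79, adjusted p = 0.011). Trpa1 had no count at peak and 2 to 90 counts in no disease nerve. Of the 9 itch genes tested there 4 fell and 1 rose, or 2 and 1 without nerve no disease replicate 1. Of the 22 signalling genes 8 fell and 4 rose. Rgs4 fell (-2.77 ± 0.55, adjusted p = 0.00561), and so did phospholipase C beta 1, Plcb1 (-1.18 ± 0.15, adjusted p = 0.00052), while Gna15, a Gq-class subunit of blood cells, rose (1.52 ± 0.33, adjusted p = 0.00859). Of the 18 pan-neuronal genes 9 fell and 1 rose (Thy1), or 6 and 1 without nerve no disease replicate 1.

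The genes whose level ran most like each member were found by the highest Pearson r of log2 CPM over the 9 libraries of a tissue, among genes of at least 5 CPM. In DRG these were Scg3 and Tspan7 for Mrgprd (r of 0.98 and 0.97), Ift122 for Mrgpra3 (0.97), Zfp407 for Mrgprx1 (0.97), Slc5a3 for Mrgprb5 (0.94), Pmm2 for Mrgprb4 (0.97), Adarb1 for Mrgpre (0.89) and Cdkn1b for Mrgprf (0.96). No member was among the 5 closest genes of another. In nerve the closest to Mrgprd were Phf24 (0.99) and Calca (0.98), a peptide gene of sensory neurons, and the closest to Mrgprf was Sdhb (0.99). With 9 libraries of 3 stages and all genes of that level searched, these r values are a description of these libraries and carry no test.

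The authors' deposited table of comparisons called, at q under 0.05, 2 of 7 members in DRG at peak (5.35% of all 28684 genes), 4 in nerve at peak (11.3%) and 4 in nerve at recovery over peak (9.49%). The authors' deposited table called no member in DRG at recovery (3.07% of all genes), DRG at recovery over peak (0.492%) or nerve at recovery (2.28%). In DRG at peak the authors' deposited table gave Mrgpra3 a log2 ratio of -0.75 (q = 0.00459) and Mrgprd -0.36 (q = 0.0188), peak over no disease. In nerve at peak the authors' deposited table called Mrgprd (q = 2.58e-05), Mrgprb5 (q = 0.000884), Mrgprb4 (q = 0.00535) and Mrgprf (q = 0.0283). Mrgprb5 and Mrgprb4 did not pass the low-count filter used here in nerve. The shares above are over all 28684 genes, of which 16049 passed that filter in nerve. Of those 16049, edgeR called 12.1% lower and 15.0% higher at peak, so the counts of members are not set against a like background.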

How the data were processed

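RNA was measured by bulk sequencing in 18 libraries, 3 for each tissue and stage. The authors deposited whole-number counts per gene, and the submitters' processing notes name STAR 2.6.1a, kallisto 0.44.0, Bowtie2 and the builds GRCm38 and mm10. The role of each tool, the annotation, the strand setting and the treatment of reads with several matches are not stated there. A second deposited sheet holds normalised signal, which equals the counts divided by 1 factor per library (largest relative departure 5.11e-15), and was used for gene names. The authors' deposited table gives log2 ratios with p-values and q-values for each comparison, per the file headers.

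The counts were tested with edgeR 4.0.16 in R 4.3.3 (low-count filter by filterByExpr, TMM scaling, quasi-likelihood F test). DRG and nerve stages were fitted on the 9 libraries of a tissue and tissue contrasts on all 18. Benjamini-Hochberg adjustment ran over all genes tested, and genes under an adjusted p of 0.05 were called. SE values were computed as the absolute log2 fold change over the root of F. Levels are CPM with TMM factors (0.798 to 1.09 within a tissue, and up to 1.11 in the fit of all 18 libraries). SD and SE values include the spread between libraries, and floors cover counting error only. Alternatives used DESeq2 1.42.0, limma-voom (limma 3.58.1), other scalings, filters and fits, and leaving out each library. Gene models came from GENCODE vM21, where 28578 of the 28684 identifiers were found, and coding identity was computed with Biopython 1.88.

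The members and gene lists were chosen with earlier results of these data known. Every member is named. In each list up to 3 called genes with the largest change and a mean of at least 1 CPM were to be named, and list genes named beyond those were chosen after their values were seen. The lists described are non-peptidergic, itch, Mrgpr signalling, neuronal injury, peptidergic, pan-neuronal, Schwann cell, smooth muscle and pericyte, fibroblast, endothelial and macrophage genes. Lists of C-low-threshold mechanoreceptor, A-fibre neuron, satellite glia, mast cell, and other Mrgpr and Mas genes are described too. Likeness was the Pearson r of log2 CPM, leaving out predicted genes.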

Additional observations from a re-analysis of the deposited data

Results flagged for a closer look

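The change at peak differed between the tissues for Mrgprd, by edgeR's test of the difference in the fit of all 18 libraries. The peak response of DRG minus that of nerve was 5.23 on the log2 scale (adjusted p = 0.0191). The call of Mrgprd was lost without nerve no disease replicate 1 (3.55, adjusted p = 0.0948) and without nerve peak replicate 2 (adjusted p = 0.0503). The same test gave 6.83 for Mrgprb5 (adjusted p = 0.0106) and 5.87 for Mrgprb4 (adjusted p = 0.017), 2 genes that did not pass the low-count filter in nerve and entered this fit through their DRG counts, so their values support no call. For Mrgprb4 the adjusted p was 0.0596 without nerve no disease replicate 1 and 0.0537 with limma-voom, within a range of 0.000377 to 0.0596 over the alternatives. Mrgprb5 and Mrgprb4 had no count in any peak nerve library and Mrgprd had 4 over all 3, so the fitted sizes depend on the prior count.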

How the results depend on the processing

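Over 27 alternatives, 991 of 1086 values for 51 results on single members kept their direction and their side of the threshold, 55 changed sign, 18 lost the call and 22 gained it. Where no cause is named, the cause was not tested. Counts of members called under an alternative describe that fit alone, since the share of all genes called moves with the setting. In DRG at peak, scaling to pan-neuronal genes called 16.4% of all genes higher and 0.212% lower, beside 4.42% and 3.21% in the main fit. In DRG at peak, members called lower numbered 0 scaled to pan-neuronal genes and 0 in the 18-library fit, and 2 with DESeq2 and with no low-count filter; Mrgprb4 was 0.10 and Mrgprx1 0.11 scaled to pan-neuronal genes, and Mrgpre was -0.011 with limma-voom, -0.013 in the 18-library fit and -0.0025 with the replicate block. In DRG at recovery, 2 were called lower with DESeq2 and 1 with no filter; Mrgprb4 was -0.0090 in the 18-library fit and -0.0051 with the replicate block, Mrgprb5 0.0086 with library totals and 0.13 scaled to pan-neuronal genes, and Mrgpre 0.032 under the second of these. For DRG recovery over peak, Mrgprd was 0.10 with library totals, a scaling that moved the all-gene median to 0.16. In nerve at peak, 0 were called higher scaled to pan-neuronal genes, and 3 lower with no filter and 4 in the 18-library fit, where 4 members enter with no filter or through their DRG counts. In nerve at recovery Mrgpre was -0.010 in the 18-library fit. For nerve recovery over peak, members called higher numbered 1 scaled to pan-neuronal genes, 1 with DESeq2, 1 with the replicate block, and 3 with no filter and in the 18-library fit, and lower 0 scaled to pan-neuronal genes and in the 18-library fit. For the difference in recovery response, Mrgpra3 was -0.0054 with RLE factors, -0.0049 with library totals, -0.39 scaled to pan-neuronal genes, -0.43 with limma-voom, -0.032 with no filter and -0.21 with the replicate block, and Mrgprx1 was -0.10 scaled to pan-neuronal genes. For DRG over nerve that scaling left 1 called higher and 2 lower, with Mrgprx1 at -0.21 and Mrgpre at -4.20. Leaving out each library gave 0 to 2 called lower in DRG at peak (Mrgprb5 -0.10 to 0.19, Mrgpre -0.11 to 0.18), 0 to 1 higher and 0 to 3 lower in DRG at recovery (Mrgprb4 -0.12 to 0.11, Mrgprb5 -0.28 to 0.013), and -0.13 to 0.045 for Mrgprd in DRG recovery over peak. It gave 0 to 2 lower in nerve at peak, -2.42 to 0.54 for Mrgprd and -0.060 to 0.10 for Mrgpre in nerve at recovery, and 0 to 1 higher and 0 to 1 lower for nerve recovery over peak (Mrgpre -0.15 to 0.0043). For the peak response it gave -0.14 to 0.16 for Mrgpre, with no count of calls read there. For the recovery response it gave -0.97 to 2.14 for Mrgprd, -2.07 to 1.18 for Mrgpra3, -0.43 to 2.18 for Mrgprb5 and -0.58 to 1.69 for Mrgprx1. Same-numbered libraries of different stages in a tissue deviated together, with r over 0.1, in 3 of 9 nerve pairs and 2 of 9 DRG pairs. Nerve and DRG libraries of the same number were not compared. Whether the numbers pair the samples is therefore not settled, and the main fits used no replicate block. Depth limits the nerve values of 4 members, which had at most 27 counts in any nerve library.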

Other observations

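Of 13 other Mrgpr and Mas genes 9 were tested between the tissues with no disease, where 5 were higher in DRG and 3 lower; genes high in 1 tissue could pass the filter through it alone, and those named here were chosen after their values were seen. Mrgpra2b was higher in DRG (3.66 on the log2 scale) and had no count in peak nerve and 16 over the no disease nerve libraries. Mrgprb2, a receptor of connective tissue mast cells, was lower in DRG than in nerve with no disease (-2.50 on the log2 scale), as was Mrgprb1 (-3.73). Mrgprx2, which is not one of the 13, was lower in DRG too (-2.84). The mast cell list had 0 of 11 genes called in either direction in nerve at peak. Mrgprg had 15 to 41 counts in recovery nerve libraries and 2 to 11 counts in peak nerve libraries, a log2 fold change of 2.05 ± 0.52 (adjusted p = 0.0246 by edgeR).

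The pseudogene Mrgprx3-ps was expressed in DRG, at 29.7 ± 4.76 CPM at peak, 30.7 ± 3.50 CPM at recovery and 37.5 ± 1.36 CPM with no disease (SD, n = 3 each).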
